A study of Homo sapiens with 6 samples.

Results

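Metallothioneins are the small cysteine-rich proteins that bind zinc and copper in cells, and the 9 family members examined here were every row of the deposited gene tables named MT1A, MT1E, MT1F, MT1G, MT1H, MT1M, MT1X, MT2A or MT3, out of 38648 listed genes and gene copies. The 6 bulk RNA-seq libraries were made from HK-2, a human kidney cell line that was immortalized from proximal tubular epithelium. All cells received 8 Gy of X-rays at once and were harvested on day 7. The cells of 3 libraries carried a negative control lentivirus (IR+NC-LV) and those of the other 3 a lentivirus overexpressing PRDM16 (IR+PR-LV). No library came from unirradiated cells, so the values describe irradiated cells that carried either virus. Nothing in the labels says that the 3 libraries of a group came from separate cultures, so the p-values measure the spread between these libraries, which may be technical.

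Metallothioneins hold zinc and copper through clusters of cysteine thiols, buffer free metal, and take up toxic metals such as cadmium. Their genes are switched on by the zinc sensor MTF1, a transcription factor that binds metal response elements (MREs) in their promoters, and MT2A and several MT1 genes also respond to glucocorticoids and oxidative stress. The kidney proximal tubule is a main site of metallothionein expression and of cadmium storage. MT3 is best known from the brain.

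The 9 genes lie together on chromosome 16 between positions 56589528 and 56684196 (GRCh38, the build of the files), a span of 94.7 kb, with 8 of them on the plus strand and MT1G alone on the minus strand. Each was listed once and shared no exon base with another listed gene. Their exons together covered 396 to 467 bases each, apart from MT1E with 746 bases. The coding sequences show why these genes count as a family, and those of the 3 most abundant members follow 5′ to 3′ (GENCODE release 29, GRCh38), with the cysteine codons TGC and TGT in capitals.
MT2A: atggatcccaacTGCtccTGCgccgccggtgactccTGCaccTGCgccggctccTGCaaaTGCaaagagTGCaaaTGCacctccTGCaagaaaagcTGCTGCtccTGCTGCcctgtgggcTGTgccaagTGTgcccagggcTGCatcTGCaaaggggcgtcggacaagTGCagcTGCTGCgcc
MT1E: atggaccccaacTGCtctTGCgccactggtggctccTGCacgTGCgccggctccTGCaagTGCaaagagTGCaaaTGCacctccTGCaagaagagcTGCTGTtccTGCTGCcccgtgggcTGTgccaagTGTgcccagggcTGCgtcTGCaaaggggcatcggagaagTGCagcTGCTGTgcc
MT1X: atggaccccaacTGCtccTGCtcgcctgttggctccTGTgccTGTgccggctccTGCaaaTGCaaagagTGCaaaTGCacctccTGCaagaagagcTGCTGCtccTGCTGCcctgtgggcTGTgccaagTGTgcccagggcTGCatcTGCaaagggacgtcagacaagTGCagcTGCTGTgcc
Each of the 3 had 20 cysteine codons, which made up 32.8% of its 61 codons. The 7 members with coding sequences of 183 bases were between 88.5% (MT1F and MT1X) and 94.5% (MT1A and MT1E) identical base by base over 21 pairs. Despite this likeness, of the 150-base stretches of the listed exons, 100% occurred in no transcript of another annotated gene for 8 members, as far as annotated transcripts cover those exons (398 of the 746 bases of MT1E). For MT1X the share was 93.3%, the rest being shared with AC026461.1, a gene that the annotation classes as a processed transcript and that starts at the first base of MT1X on the same strand. Of the 100-base stretches, the share was lower for MT1X, at 78%, the rest again being shared with AC026461.1. It was 96.6% for MT1H, the rest being shared with MT1HL1, and 100% for each other member. How the counting treated reads that aligned to several places is not given in the sources used here.

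Promoter sequences were matched for 3 members, MT2A, MT1X and MT1H (RefSeq, GRCh38.p14). The 250 bases before each start are shown 5′ to 3′ because they contrast the most abundant member, a moderately abundant member and an almost silent member. Capitals mark matches to the MRE letters TGCACNC or TGCGCNC on either strand.
MT2A (chr16:56608334-56608583, plus strand): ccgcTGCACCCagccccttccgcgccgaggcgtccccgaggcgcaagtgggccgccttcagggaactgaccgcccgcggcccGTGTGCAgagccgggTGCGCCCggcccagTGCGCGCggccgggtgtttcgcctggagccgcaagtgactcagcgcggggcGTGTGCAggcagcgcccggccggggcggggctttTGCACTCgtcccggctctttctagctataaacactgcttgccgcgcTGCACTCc
MT1X (chr16:56682220-56682469, plus strand): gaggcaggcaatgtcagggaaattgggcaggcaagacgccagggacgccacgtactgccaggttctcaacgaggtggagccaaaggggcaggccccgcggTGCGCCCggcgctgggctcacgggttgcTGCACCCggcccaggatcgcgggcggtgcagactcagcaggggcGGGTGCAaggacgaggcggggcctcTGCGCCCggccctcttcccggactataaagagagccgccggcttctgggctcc
MT1H (chr16:56669564-56669813, plus strand): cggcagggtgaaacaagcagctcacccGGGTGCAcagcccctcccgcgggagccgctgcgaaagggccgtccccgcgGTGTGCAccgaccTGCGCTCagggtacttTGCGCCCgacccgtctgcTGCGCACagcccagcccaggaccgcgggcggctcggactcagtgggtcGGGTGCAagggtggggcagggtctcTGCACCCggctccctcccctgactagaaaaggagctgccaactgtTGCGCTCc
Counted without overlaps, MT2A had 7 such matches, MT1H 8 and MT1X 4. Of all 35116 promoter windows of the same length, 24.8% held a match, 0.208% held 4 or more and 0.0228% held 7 or more. MT1H, with the largest number of matches of the 3 genes, had a single read in all 6 libraries. The letters TATAAA were found in the MT2A and MT1X windows, 29 and 30 bases before the start, and not in that of MT1H, against 10.7% of all windows. The antioxidant response letters TGACNNNGC were found once each in MT2A and MT1X (10.9% of all windows), and the AP-1 letters TGANTCA once in MT2A (6.57% of all windows). In MT2A the AP-1 match lies within the antioxidant response match, so they are the same stretch. A match describes the letters of the window and does not show that a factor binds there.

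The libraries held between 13407074 and 28540041 counts. PRDM16 had 2, 0 and 1 counts with the control virus against 14, 10 and 8 with the PRDM16 virus. From 3 and 32 counts in all, the rate in IR+PR-LV was 8.51 times that in IR+NC-LV. The exact 95% interval of 2.66 to 43.4 covers counting error only. The labelled groups thus differed in PRDM16 counts. The level with the PRDM16 virus was low, at 0.308, 0.131 and 0.163 TPM (transcript abundance scaled for exon length and library size). Its ranks there were 17820, 20074 and 19884 among all listed genes. Whether these counts came from the delivered or the endogenous gene was not tested. Of 8 epithelial and kidney markers, 7 reached at least 1 TPM in every library, among them KRT8, KRT18 and PAX8. Of 8 proximal tubule markers only AQP1 and GGT1 did so, and the endocytic receptor LRP2 had 3 counts and the transcription factor HNF4A 4 counts in all libraries together. Of 6 fibroblast markers COL1A1 and LUM reached 1 TPM in every library, and of 6 immune and endothelial markers CD14 alone. The summed TPM of the epithelial and kidney list was 2197 to 2289 in IR+NC-LV and 2171 to 2693 in IR+PR-LV. That of the proximal tubule list was 77.3 to 80.8 and 60.2 to 79.2, that of the fibroblast list 130 to 136 and 106 to 150, and that of the immune and endothelial list 4.34 to 6.83 and 4.21 to 5.61.

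MT2A was among the most abundant messages of the irradiated cells. Its level was 3998, 3155 and 2766 TPM in IR+NC-LV replicates 1, 2 and 3 and 3729, 3667 and 2768 TPM in the IR+PR-LV replicates. Both groups therefore spanned nearly the same range. By TPM it ranked 13 to 22 among all listed genes, depending on the library. By its mean over the 6 libraries, 3347 TPM, it ranked 17, directly below the ribosomal protein gene RPL35 at 3481 TPM. MT2A encodes the main human metallothionein outside the brain, and it alone supplied between 0.277% and 0.4% of the TPM of a library.

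The MT1 genes, whose products bind the same metals, lay well below it. MT1E, the next most abundant, had 423, 441 and 262 TPM in IR+NC-LV and 393, 446 and 349 TPM in IR+PR-LV, with ranks between 331 and 642. MT1X had 288, 316 and 205 TPM in IR+NC-LV and 218, 258 and 212 TPM in IR+PR-LV, with ranks between 517 and 858. MT1F had 92.2, 102 and 69.8 TPM and 89.7, 85.3 and 70.6 TPM in the 2 groups, with ranks between 1970 and 2981. In each of these 3 genes the groups overlapped.

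MT1M and MT1A were detected in every library at low levels. MT1M had 39.5, 24.8 and 22.1 TPM in IR+NC-LV and 19.2, 28.9 and 22.3 TPM in IR+PR-LV. MT1A had 21.5, 24.1 and 15.2 TPM in IR+NC-LV and 15.9, 15.5 and 13.4 TPM in IR+PR-LV. The IR+NC-LV replicates 1 and 2 were the highest MT1A libraries, while replicate 3 lay among the IR+PR-LV libraries. Both genes ranked between 4607 and 8183.

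The other 3 members were at or near the limit of detection. MT1G, a zinc-inducible gene, was counted 1, 5 and 2 times with the control virus and 11, 4 and 3 times with PRDM16. From 8 and 18 counts in all, the rate in IR+PR-LV was 1.79 times that in IR+NC-LV, with an exact 95% interval of 0.743 to 4.77 that covers counting error only and includes 1. Of the 18 counts 11 came from IR+PR-LV replicate 1, and without that library the ratio was 0.949. Without IR+NC-LV replicate 2 it was 2.81, so that single libraries set both its size and its direction. MT1H had 1 count, in IR+PR-LV replicate 3. MT3 had 0 counts in all 6 libraries, which allows up to 0.026 CPM (counts scaled for library size, with 3 counts of the total taken as the limit). A difference between the groups in MT1H or MT3 was not detectable at this depth.

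**Figure D1:**
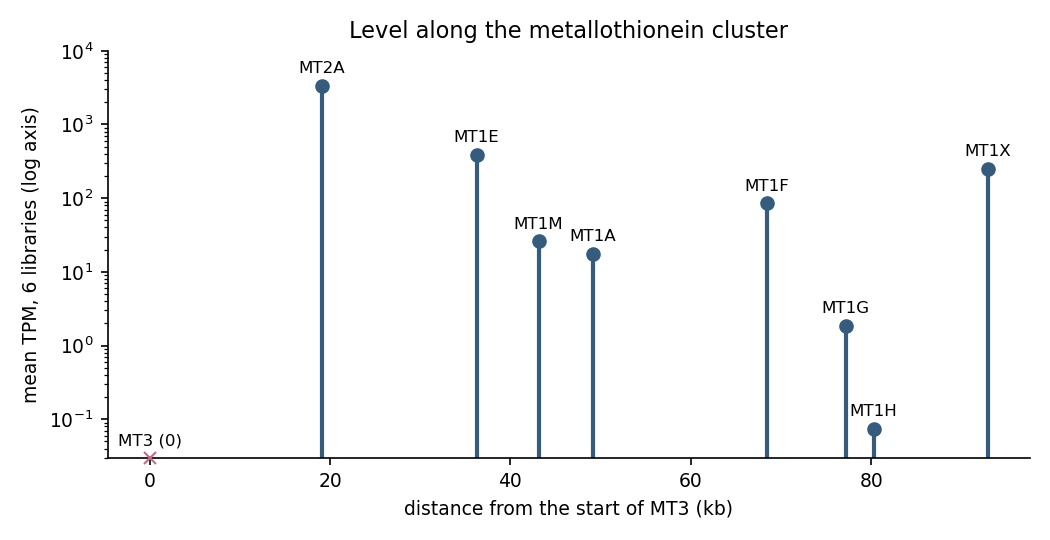
Mean TPM over the 6 libraries (log axis) of the 9 metallothionein genes, placed by the distance of their first base from the start of MT3 in kb, with a cross for MT3 at 0. MT2A stands at 3347 TPM towards one side of the cluster, MT1X at 249 TPM at the other and MT1H at 0.0744 TPM between them, while MT1M and MT1A lie next to each other at 26.1 and 17.6 TPM.

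By mean TPM the order of the levels was MT2A, MT1E, MT1X, MT1F, MT1M, MT1A, MT1G, MT1H and MT3. The last step rests on the 1 count of MT1H in 1 of 6 libraries, so MT1H and MT3 cannot be ordered by these data. MT2A exceeded MT1E by 7.15 to 10.6 times within a library. MT1E exceeded MT1X in 6 of 6 libraries, by 1.28 to 1.8 times, although the lowest MT1E library (262 TPM) lay below the highest MT1X library (316 TPM). TPM divides the MT1E count by 746 exon bases, while the MT1X count is divided by 404. MT1M exceeded MT1A in 6 of 6 libraries, by only 1.03 to 1.86 times, and the ranges of the 2 genes overlapped. In the remaining steps down to MT1G the ranges of neighbours over the libraries did not overlap, with at least 2.34 times between neighbours in every library. MT1G itself ran from 0.473 to 5.13 TPM.

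**Figure D2:**
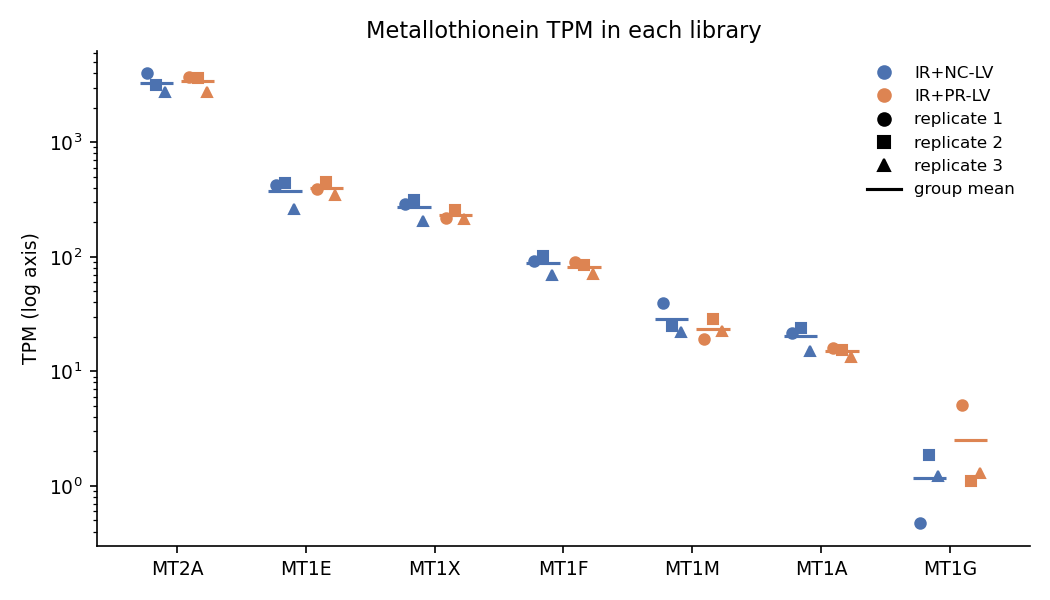
TPM (log axis) of the 7 members with counts in every library, with 1 point per library, coloured by group and shaped by replicate, and a bar at each group mean. The IR+NC-LV and IR+PR-LV points overlap for each gene, and MT2A lies above every other member in all 6 libraries.

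Summed over the 9 members, the metallothionein level was 4089 ± 761 TPM (SD, n = 3) in IR+NC-LV and 4136 ± 606 TPM (SD, n = 3) in IR+PR-LV. The libraries held 4862, 4064 and 3341 TPM in IR+NC-LV and 4471, 4501 and 3437 TPM in IR+PR-LV, which is 0.334% to 0.486% of all TPM. In bulk RNA, fewer cells expressing a gene and less RNA per cell cannot be told apart. MT2A made up 80.9% ± 2.83 of the IR+NC-LV sum and 81.8% ± 1.47 of the IR+PR-LV sum, MT1E 9.13% ± 1.56 and 9.61% ± 0.721, MT1X 6.61% ± 1.01 and 5.59% ± 0.656, and MT1F 2.16% ± 0.313 and 1.99% ± 0.0804 (SD, n = 3 each). Differences between the group means of these shares were close to or within 1 SD of the IR+NC-LV libraries.

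**Figure D3:**
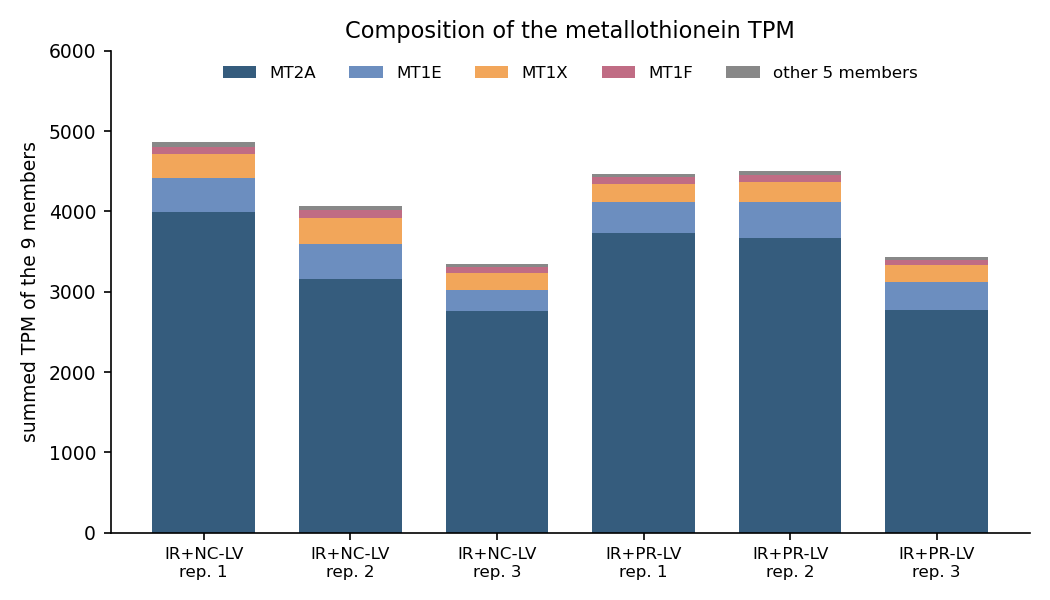
Stacked TPM of the 9 metallothioneins in each library on a linear axis from 0, with MT2A, MT1E, MT1X and MT1F drawn apart and the other 5 members pooled. MT2A fills 77.6% to 83.4% of every bar, and replicate 3 has the lowest bar of each group, at 3341 TPM and 3437 TPM.

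Comparing IR+PR-LV with IR+NC-LV addresses whether gene expression differs between irradiated tubular cells with the PRDM16 virus and those with the control virus. No metallothionein passed the threshold. Whether the low PRDM16 RNA level given above bears on this was not tested. The counts were compared with edgeR's quasi-likelihood test after TMM normalization, with Benjamini-Hochberg adjustment over the 15340 genes and gene copies that passed the filter on low counts and a threshold of 0.05. Of the 9 members, 6 passed the filter, and MT1G, MT1H and MT3 did not. The number past the threshold was 0 of 6, and 0 of 6 had an unadjusted p-value under 0.05, against 0.0652% (0.0196% higher and 0.0456% lower in IR+PR-LV) and 10.5% of all tested genes. DESeq2 also called 0 of the 6. Unadjusted p-values under 0.05 were seen only under alternatives, for MT1A without IR+NC-LV replicate 3 (0.0141 from edgeR) and with limma on log2(TPM + 1) (0.0388), and for MT1X without IR+NC-LV replicate 3 (0.0101 from edgeR). The IR+NC-LV and IR+PR-LV libraries overlapped in CPM for all 6 tested members, whereas they did not overlap for 17.0% of all tested genes.

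The 2 most abundant members had positive log2 fold changes and the other 4 negative ones, where positive values are higher in IR+PR-LV. Negative values made up 48.9% of those of all tested genes. MT2A had a log2 fold change of 0.07 with a standard error of 0.16 and a 95% interval from -0.29 to 0.44 (adjusted p = 0.905 from edgeR). That of MT1E was 0.10 with a standard error of 0.20 and an interval from -0.35 to 0.55 (adjusted p = 0.885 from edgeR). MT1F had -0.08 (interval -0.48 to 0.32), MT1X -0.21 (-0.59 to 0.18) and MT1M -0.25 (-0.84 to 0.35), and edgeR gave them adjusted p-values from 0.718 to 0.899. MT1A had the most negative value, -0.43 with a standard error of 0.23 and an interval from -0.94 to 0.09 (adjusted p = 0.557 from edgeR), on 131 counts with the control virus and 117 with the PRDM16 virus. The median over the 6 members was -0.14, beside 0.0044 over all tested genes. The intervals leave room for changes of either sign in all 6 genes, so that these data do not show equal levels in the groups. The sign of the value depended on a single library for MT2A, MT1E, MT1F and MT1M: the log2 fold change of MT2A was -0.07 without IR+NC-LV replicate 3 and -0.0032 without IR+PR-LV replicate 1, and that of MT1E was -0.12 without IR+NC-LV replicate 3 and -0.0017 without IR+PR-LV replicate 2. That of MT1F was 0.07 without IR+NC-LV replicate 2 and 0.02 without IR+PR-LV replicate 3, and that of MT1M was 0.05 without IR+NC-LV replicate 1. With any single library left out the values of MT1X and MT1A were negative, but that of MT1X came to -0.05 without IR+NC-LV replicate 2.

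**Figure D4:**
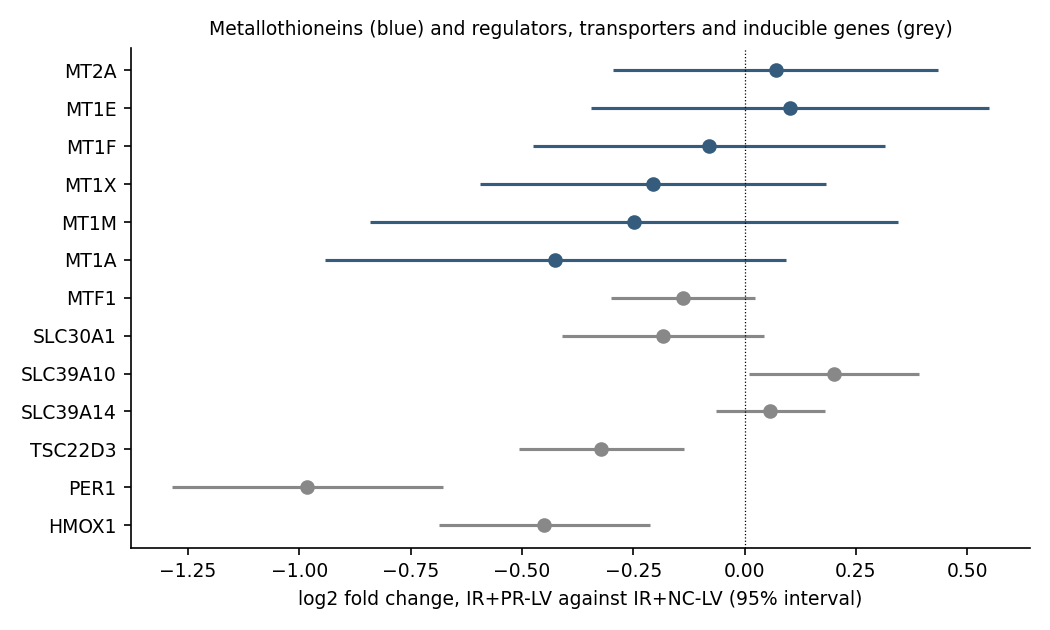
Log2 fold change of IR+PR-LV against IR+NC-LV with its 95% interval from edgeR for the 6 tested metallothioneins (blue) and for 7 regulators, transporters and inducible genes named in the text (grey). All 6 metallothionein intervals include 0, and the value of PER1, -0.98, lies farthest from 0.

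The spread between libraries of a group was wide for these genes. The standard errors of MT2A, MT1E, MT1F and MT1X, each with a mean above 10 CPM, lay between 0.16 and 0.20, against a median of 0.0864 over all 9817 tested genes at that level. Replicate 3 was the lowest library of both groups for 5 of the 6 tested members, which was also the case for 16% of all tested genes. On the log2 CPM scale, the 6 members lay between 0.26 and 0.63 below their own mean in IR+NC-LV replicate 3, with MT1E the lowest at -0.63. In IR+PR-LV replicate 3 they lay between 0.12 and 0.34 below it. The median of 408 other genes with at most 800 exon bases was -0.10 and -0.03 in the same libraries, 0.10 in IR+NC-LV replicates 1 and 2, and -0.02 and -0.01 in IR+PR-LV replicates 1 and 2. Short genes and all 6 members thus deviated upwards in IR+NC-LV replicate 1 and downwards in both replicates 3, the members by more. In the other libraries the members lay on both sides of 0. They ranged from -0.04 (MT2A) to 0.49 (MT1A) in IR+NC-LV replicate 2. In IR+PR-LV they ranged from -0.36 (MT1M) to 0.19 (MT2A) in replicate 1 and from -0.11 (MT1A) to 0.27 (MT1E) in replicate 2. The part of exon length in the result was not tested beyond the following alternative. With the trend of each library with exon length removed, an alternative added after the data were seen, MT2A and MT1E had log2 fold changes of 0.15, MT1F of -0.0065, MT1X of -0.12, MT1M of -0.17 and MT1A of -0.34, and 0 of the 6 members passed the threshold.

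**Figure D5:**
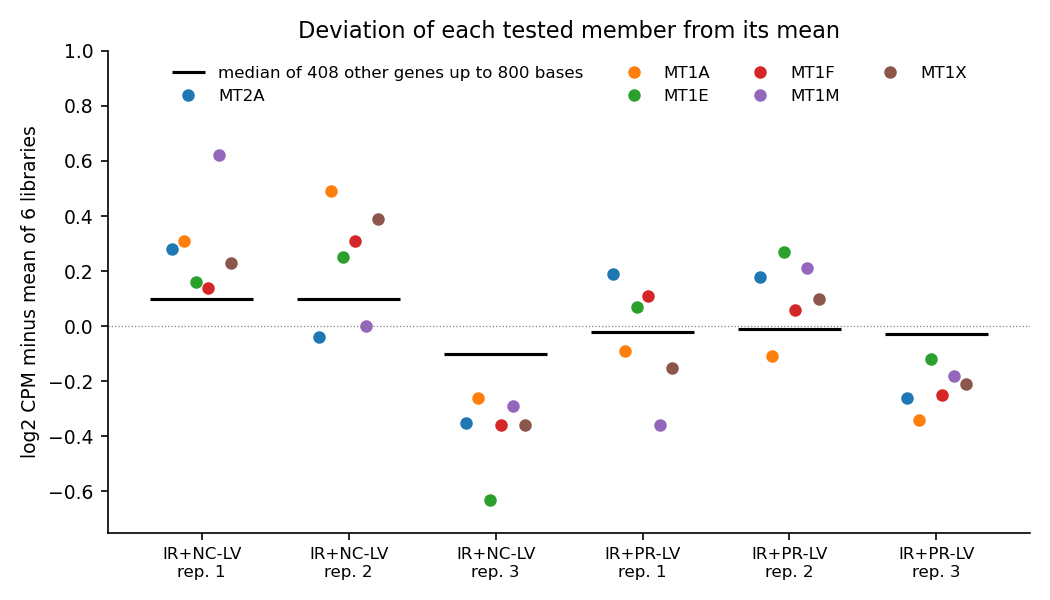
Log2 CPM of the 6 tested members in each library minus the mean over the 6 libraries of the same gene (points), with a black bar at the median of 408 other genes of at most 800 exon bases. All points of both replicates 3 lie below 0, down to -0.63 for MT1E in IR+NC-LV replicate 3, and every MT1A point of IR+PR-LV lies below 0.

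The genes whose libraries followed MT2A most closely were named by the Pearson correlation of log2 CPM over the 6 libraries, among 9813 genes with a mean of at least 10 CPM. They were MYDGF (r = 0.988), IDH3G (r = 0.982), ST3GAL4 (r = 0.975), C22orf39 (r = 0.967) and ACOT2 (r = 0.964). Those closest to MT1E were DKK3 (r = 0.997), TMEM205 (r = 0.996), RHOC (r = 0.994), PTGR1 (r = 0.994) and SLC25A5 (r = 0.992). Their amplitude was smaller than that of the metallothioneins, with MYDGF between 222 and 263 TPM and DKK3 between 382 and 430 TPM. These are the highest values out of many genes over 6 points that share depth and handling, and they are descriptions without a test. The fold changes of the 10 genes lay between 0.01 and 0.07 on the log2 scale.

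The genes that set zinc and copper levels and those that share inducers with metallothioneins were examined next, from lists of transporters, regulators and inducible genes. Of 61 such genes, 52 were tested and 0 passed the threshold over all genes, while 10 had an unadjusted p-value under 0.05 (4 with positive and 6 with negative values), against 10.5% of all tested genes. DESeq2 called 3 of them, SLC39A6, 1 copy of SLC39A7 and PER1. The median log2 fold change was 0.03, beside 0.0044 over all tested genes.

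MTF1, the zinc-sensing activator of metallothionein genes, averaged 41.7 ± 2.13 CPM with the control virus against 37.9 ± 0.853 CPM with PRDM16 (SD over 3 libraries each). Its log2 fold change was -0.14 with a standard error of 0.07 (adjusted p = 0.539 from edgeR). The libraries of the groups did not overlap for MTF1, 1 of the 5 genes in a list of MTF1, MTF2, SP1, USF1 and USF2, against 17.0% of all tested genes. The median of that list was 0.02. Its other members had values between 0.02 for USF2 and 0.05 for SP1, and 0 of the 5 had an unadjusted p-value under 0.05.

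SLC30A1, the zinc exporter of the plasma membrane and itself a target of MTF1, averaged 150 ± 20.5 CPM with the control virus against 132 ± 10.2 CPM with PRDM16 (SD over 3 libraries each). Its log2 fold change was -0.18 with an adjusted p of 0.565 from edgeR and a standard error of 0.10. Of the 10 zinc exporters and vesicular transporters, 6 were tested, with a median of -0.02 and 0 past an unadjusted 0.05. SLC30A5 had the highest value of them at 0.12. Among the 14 zinc importers, 11 were tested, with a median of 0.06, and 3 of the 11 had positive values with an unadjusted p-value under 0.05, against 10.5% of all tested genes in either direction. These were SLC39A6 (0.28, adjusted p = 0.142 from edgeR), SLC39A10 (0.20, adjusted p = 0.452 from edgeR) and 1 copy of SLC39A7 (0.88, adjusted p = 0.0846 from edgeR). SLC39A10 is an importer whose gene is repressed by MTF1 when zinc is ample. SLC39A7, which releases zinc from the endoplasmic reticulum, is listed in 6 copies between which reads could be split, and with the copies summed its log2 fold change was 0.45 (adjusted p = 0.494 from edgeR). SLC39A14, an importer of zinc, iron and manganese, had 0.06 (adjusted p = 0.745 from edgeR), and SLC39A11 had the lowest value of the importers at -0.05.

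Of the 11 genes of copper transport and delivery, 10 were tested, with a median of 0.03. ATOX1, the chaperone that hands copper to the ATP7 pumps, averaged 31.1 ± 3.2 CPM with the control virus against 25.3 ± 0.451 CPM with PRDM16 (SD over 3 libraries each). Its log2 fold change was -0.30 with an unadjusted p-value of 0.00909 and an adjusted p of 0.326 from edgeR. SCO1, which delivers copper to cytochrome c oxidase, had the highest value of the list, 0.18 (adjusted p = 0.396 from edgeR). The lowest was that of the putative low-affinity transporter SLC31A2 at -0.43, on 89 counts in all libraries (adjusted p = 0.713 from edgeR).

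Glucocorticoid-induced genes and genes induced by cadmium or oxidants share inducers with MT2A. Of the 10 genes of the glucocorticoid list 9 were tested, with a median of -0.05. TSC22D3, which encodes the glucocorticoid-induced leucine zipper, averaged 48.2 ± 2.35 CPM with the control virus against 38.6 ± 3.18 CPM with PRDM16 (SD over 3 libraries each). Its log2 fold change was -0.32 with an adjusted p of 0.237 from edgeR and a standard error of 0.08. PER1, a clock gene with a glucocorticoid response, averaged 27.9 ± 4.41 and 14.1 ± 1.73 CPM in the same order. PER1 had the value farthest from 0 of the list at -0.98, which missed the threshold (standard error 0.13, edgeR adjusted p = 0.0582) and passed it under 6 of 17 alternatives. FKBP5, another gene induced by glucocorticoids, had -0.05 (adjusted p = 0.788 from edgeR), and the highest value was 0.06 for the kinase gene SGK1.

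All 11 genes of the cadmium and oxidant list were tested, with a median of 0.02. HMOX1, heme oxygenase, averaged 22.3 ± 2.41 CPM with the control virus against 16.3 ± 1 CPM with PRDM16 (SD over 3 libraries each). Its log2 fold change was -0.45 with an adjusted p of 0.21 from edgeR and a standard error of 0.10. SLC7A11, the cystine transporter that supplies cysteine, had the lowest value at -0.72 (adjusted p = 0.37 from edgeR), with 74.0 ± 29.1 and 44.9 ± 6.98 CPM (SD over 3 libraries each). Without the filter on low counts, edgeR gave adjusted p-values of 0.0386 for HMOX1 and 0.000131 for SLC7A11. SQSTM1, an autophagy receptor listed in 2 copies, had the highest value at 0.29 in 1 of them (adjusted p = 0.491 from edgeR). The groups did not overlap for 4 of the 11 genes, HMOX1, SLC7A11, OSGIN1 and NQO1, against 17.0% of all tested genes.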

How the data were processed

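Bulk RNA-seq of poly(A) RNA was performed by the authors on 6 libraries of irradiated HK-2 cells. The submitters' processing notes name hg38 and featureCounts 2.0.1, and DESeq2 1.16.1, whose output was not used here. The aligner, the strand setting and the handling of multimapped reads are not given in the sources used here. The authors deposited raw counts of reads per gene, TPM and FPKM for each library, with the exon length. The deposited TPM values follow from the counts and exon lengths and served for levels and ranks. The deposited FPKM values were not used.

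Groups and replicate numbers were taken from the sample titles. Counts were tested in R 4.3.3 with edgeR 4.0.16 (filterByExpr at its count limit of 10 and total limit of 15, TMM factors from 0.981 to 1.04, quasi-likelihood test, Benjamini-Hochberg adjustment, threshold 0.05). CPM values are TMM-normalized. Intervals on counts are exact binomial (scipy 1.17.1) and, like detection limits, cover counting error only. Alternatives were other normalizations, DESeq2 1.42.0, other filters, a replicate block, leaving out each library, summed copies, assembled chromosomes only, limma 3.58.1 on log2(TPM + 1), and removal of a length trend. Tested on simulated data, edgeR called 179 of 200 genes given a log2 change of 1, besides 14 false calls among 15185 genes. This change is larger than the estimate of any tested member. The recovery therefore does not describe smaller changes or genes with a spread as wide as theirs. Members and lists were chosen with earlier results of these data known. Named were all 9 members, other metallothionein loci with a count, MTF1, SLC30A1, SLC39A10, SLC39A14, TSC22D3, HMOX1, genes past the threshold, and the highest and lowest gene of each list. SLC39A6, ATOX1, FKBP5, OSGIN1, NQO1 and USF2 were named after their values were seen. Of 12 other metallothionein loci listed, 3 had a row in the files.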

Additional observations from a re-analysis of the deposited data

How the results depend on the processing

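The number of metallothioneins past the threshold was 0 under all 17 alternatives, and the lowest adjusted p-value of any member was 0.401 (MT1X). MT1A and MT1X had negative log2 fold changes in all of them, from -0.60 to -0.25 and from -0.39 to -0.05. With each library left out in turn, the values ranged from -0.0695 to 0.24 for MT2A, from -0.12 to 0.26 for MT1E, from -0.24 to 0.0686 for MT1F and from -0.45 to 0.0538 for MT1M. MT1F had 0.0040 with the length trend removed and the replicate block. The 10 genes past the threshold became 173 with DESeq2, 342 with no filter on low counts, 37 on the assembled chromosomes only, 3 with the replicate block, 1 with limma on log2(TPM + 1), and with a library left out between 1 (without either of replicate 1 of IR+NC-LV and replicate 3 of IR+PR-LV) and 28 (without replicate 2 of IR+NC-LV). The 0 genes of the zinc, copper and inducer lists became 3 with DESeq2 and 5 with no filter, among them PER1, SLC39A6 and a copy of SLC39A7 in both. HMOX1 and SLC7A11 passed with no filter as well. The number became 1 (PER1) with copies summed, on the assembled chromosomes only and with the length trend removed, and 0 to 1 with a library left out. The cause was not tested. Correlations of same-numbered libraries across the groups were -0.01, 0.05 and 0.07, and those of differently numbered libraries lay between -0.10 and 0.06. Whether the numbers pair the libraries is not stated, and correlations over all tested genes cannot decide it for the members. With the replicate block the unadjusted edgeR p-value was 0.305 instead of 0.675 for MT2A and 0.256 instead of 0.619 for MT1E. It was 0.141 instead of 0.263 for MT1X and 0.434 instead of 0.371 for MT1M. The block changed no call of a member. Depth limits MT1G, MT1H and MT3. For the other members, counting error and the spread between libraries were not separated.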

Other observations

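MT1B, the one further metallothionein locus with any count, had 1, 2 and 2 counts in IR+NC-LV and 0 in each IR+PR-LV library. The exact 95% interval of the rate in IR+PR-LV relative to IR+NC-LV reached up to 0.871, for counting error only, and without the filter on low counts its adjusted p was 0.474 from edgeR. MT4, the metallothionein of squamous epithelia, and MT1HL1 on chromosome 1 had 0 counts in all 6 libraries.

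Ratios between members within a library were looked at after the values were seen. MT1E exceeded MT1X by 1.47, 1.4 and 1.28 times in TPM in the IR+NC-LV replicates and by 1.8, 1.73 and 1.64 times in the IR+PR-LV replicates. The groups did not overlap in this ratio (2-sided exact permutation test on the ratio of CPM, p = 0.1, the smallest that 3 libraries against 3 allow). Of the 15 pairs of tested members, 5 did not overlap, and 4 of these 5 involved MT1A, the member with the fewest counts, so that the pairs are not independent. Of all 117650130 pairs of tested genes, 17.1% did not overlap.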
